A study of Mus musculus with 16 samples.

Results

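Skeletal muscle mRNA was sequenced from 16 male mice, 10 labelled heterozygous and 6 labelled wildtype for Npr1, the gene of the natriuretic peptide receptor guanylyl cyclase A, and 10 genes of the contractile apparatus are described here. They are the myosin light chain genes Myl1, Myl2, Myl3 and Mylpf, the myosin light chain kinase gene Mylk2, the tropomyosin genes Tpm1, Tpm2 and Tpm3, and the alpha-actinin genes Actn2 and Actn3. They were chosen by symbol out of 55471 genes in the count table, and all 10 passed the filter on low counts that left 14331 genes for testing. The heterozygous mice (Npr1+/-) carried 1 germline null allele of Npr1 in every cell type, and the controls were Npr1+/+ littermates on the same C57BL/6J background. All mice were 12 weeks old at the start of 12 weeks on a high-fat diet with 60% of its calories from lipids. Body weights ran from 36.5 to 54 g, and the mice lived in 4 cages that each held both labels. Which muscle was sampled is not given in the sources used here, and every library is the sample of 1 mouse.

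Myosin, the motor of the thick filament, carries an essential and a regulatory light chain on the neck of each head. Phosphorylation of the regulatory chain by a calcium- and calmodulin-dependent kinase strengthens the force of fast muscle. Tropomyosin lies along the actin filament and, with troponin, sets when myosin can bind, and alpha-actinin crosslinks the ends of actin filaments in the Z disc. Fast and slow fibers use different members of each family, so that these genes are standard markers of fiber type. Mylpf and Myl1 encode the fast regulatory and fast essential light chains, and Myl2 and Myl3 their slow counterparts, which the heart ventricle also uses. Tpm1 encodes alpha-tropomyosin of fast fibers and of the heart, Tpm2 beta-tropomyosin and Tpm3 the slow tropomyosin. Actn3 is restricted to fast fibers, whereas Actn2 is found in all skeletal fibers and in the heart.

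Start site sequence is shown for 3 of the genes, picked after their values were seen. The fast light chain genes Mylpf and Myl1 moved together across the mice (r = 0.95), and Actn2 had r = -0.79 with Mylpf and -0.81 with Myl1. These 2 relations of Actn2 were not tested, and all 3 genes followed the length slope of the libraries described below. The part of the sequence in these values was not tested. RefSeq start sites on GRCm38.p6 were matched for 8 of 10 genes, and for Mylk2 and Actn3 no sequence is shown. The stretches lie on Mylpf at chr7:127211358-127211607 on the plus strand, on Myl1 at chr1:66945144-66945290 on the minus strand and on Actn2 at chr13:12340761-12340982 on the minus strand. They are the part of the 250 bases before the start that no exon of the gene covers in the GENCODE M21 annotation, and capitals mark E-boxes, the 6 letters CANNTG read by myogenic and other helix-loop-helix factors.
Mylpf: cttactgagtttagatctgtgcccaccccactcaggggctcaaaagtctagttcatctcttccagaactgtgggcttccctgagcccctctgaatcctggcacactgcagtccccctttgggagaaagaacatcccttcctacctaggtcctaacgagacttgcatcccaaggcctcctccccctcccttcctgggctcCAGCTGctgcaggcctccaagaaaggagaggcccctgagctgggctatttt
Myl1: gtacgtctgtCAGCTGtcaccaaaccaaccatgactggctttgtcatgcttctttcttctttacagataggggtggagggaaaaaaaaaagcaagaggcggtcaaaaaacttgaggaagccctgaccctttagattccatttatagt
Actn2: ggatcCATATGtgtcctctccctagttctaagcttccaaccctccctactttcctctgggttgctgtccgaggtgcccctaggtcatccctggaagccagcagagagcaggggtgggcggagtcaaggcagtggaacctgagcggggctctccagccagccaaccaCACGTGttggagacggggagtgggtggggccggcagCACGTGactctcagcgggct

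Mylpf and Myl1 each held 1 E-box, both with the same letters, 51 bases before the start in Mylpf and 224 bases before it in Myl1. Windows of Myl2, Tpm2 and Tpm3 held an E-box with these letters too, so that they are not particular to this pair. Actn2 held 3, at 245, 84 and 48 bases before the start, and those at 84 and 48 bases shared their letters. Each of the 8 matched genes held at least 1 E-box in its 250 bases, as did 66.2% of the 32851 RefSeq windows of that length. The MEF2 motif, read by the MEF2 factors of muscle, was in none of the windows of these genes and in 2.92% of all windows. The windows of Myl2 lie upstream of its interval in the count table, and the bases just before that interval were not searched. The CArG box, read by serum response factor, was in the window of Myl3 alone, 85 bases before the start, and in 1.47% of all windows. Both strands were searched, and a match of letters is not a binding site.

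The libraries held 15273472 to 59682677 counts, with a median of 20728153. The tissue was skeletal muscle by its markers, with all 9 skeletal muscle markers above the filter and a summed level of 94723 to 155131 counts per 1000000 (CPM). Heart also expresses Myl2, Myl3, Tpm1 and Actn2. Of 8 cardiac markers, Myl7 and Nppb were at 0 counts in every library, and Nppa and Ryr2 were at 0 in 6 libraries each and at no more than 0.336 and 0.455 CPM in the others. Tnni3 was 0.119 to 0.696 CPM, Myh6 0.119 to 7.10, Tnnt2 1.39 to 3.64 and Myl4 11.6 to 32.0 CPM, and the part of these markers in the members' values was not tested. Npr1 did not follow the labels, with 13.6 ± 3.87 CPM (SD, n = 10) under the heterozygous label and 12.2 ± 1.05 CPM (SD, n = 6) under the wildtype label. Without heterozygous replicates 5, 6 and 7, described next, the heterozygous level was 11.8 ± 1.84 CPM (SD, n = 7). The text therefore speaks of libraries labelled heterozygous or wildtype. Heterozygous replicates 5, 6 and 7 stood apart from the other 13 libraries, with longer genes higher and shorter genes lower. Their slope of log2 CPM, taken relative to the average library, on log2 gene length was 0.18 to 0.32, against -0.19 to 0.06 in the other 13.

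With the deposited gene lengths, the fast members Mylpf, Myl1, Tpm1 and Actn3 had the highest levels of the group. Together the 10 genes took 5.21 to 8.17% of all counts of a library, with the lowest share in heterozygous replicate 7 and the highest in heterozygous replicate 4. Per kilobase of gene length, the highest mean level was that of Mylpf, at 13100.2 ± 3510.02 CPM per kb (SD, n = 16). Within the mice Mylpf was on average 2.37-fold above Myl1, from the mean log2 difference. Myl1 stood at 5507 ± 1347 CPM per kb, Tpm1 at 4217 ± 628, Actn3 at 3178 ± 623 and Tpm2 at 2667 ± 614 CPM per kb. The kinase gene Mylk2 followed at 495 ± 65.6 CPM per kb and Actn2 at 133 ± 51.1 CPM per kb. The slow members were lowest, with Myl3 at 56.5 ± 16.8, Tpm3 at 5.75 ± 0.622 and Myl2 at 5.36 ± 3.93 CPM per kb.

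Neighbours in this order were compared within the mice by a two-sided exact sign-flip permutation test over 16 mice, with p-values adjusted over 9 pairs. The order came from the means of these same libraries, so the pairs were picked from the data tested. The p-values do not cover the choice of gene length. The order held in 16 of 16 mice for Mylpf over Myl1, Myl1 over Tpm1, Tpm2 over Mylk2, Mylk2 over Actn2 and Myl3 over Tpm3 (exact p = 3.05e-05 for each, the smallest this test can give; adjusted p = 5.49e-05). Actn2 was above Myl3 in 15 of 16 mice, Actn3 above Tpm2 in 14 and Tpm1 above Actn3 in 13. These 3 differences passed the same exact permutation test, with adjusted p = 9.16e-05 for Actn2 over Myl3, 0.000235 for Actn3 over Tpm2 and 0.000481 for Tpm1 over Actn3. Tpm3 and Myl2, the lowest members, did not differ beyond their spread (Tpm3 above in 10 of 16 mice, exact permutation adjusted p = 0.0986). The deposited length sums all exons of a gene, and for Tpm1 it was 6485 bases against a median of 1642 bases over its protein-coding transcripts. With the median coding transcript length in place of the deposited length, Tpm1 stood above Myl1 and Tpm2 above Actn3, and Actn2 and Myl3 no longer differed by the test, while Tpm3 over Myl2 then passed (log2 difference 0.77, unadjusted exact permutation p = 0.00494).

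**Figure D1:**
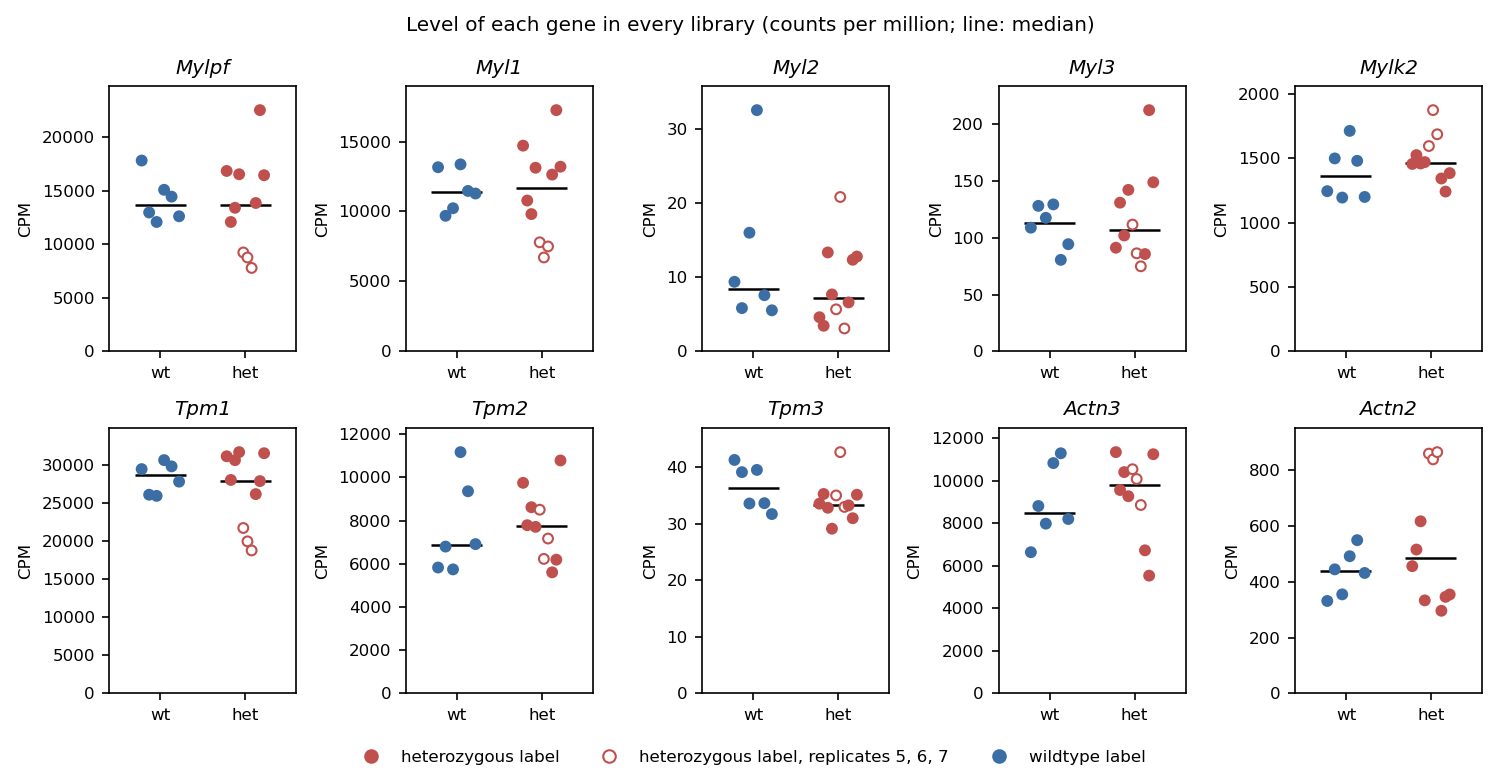
Level of each of the 10 genes in every library, in CPM on a linear axis from 0, for wildtype (wt, blue, n = 6) and heterozygous (het, red, n = 10) labels, with the median of each label as a line and heterozygous replicates 5, 6 and 7 as open circles. The open circles lie below the 13 other libraries for Mylpf, Myl1 and Tpm1 and above them for Actn2.

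Among the fast light chain genes, Mylpf (chr7:127208890-127214288, plus strand, GRCm38) ran from 7795 to 22532 CPM under the heterozygous label, with a median of 13635, and from 12087 to 17824 CPM under the wildtype label, with a median of 13714. The heterozygous libraries spanned the whole wildtype range, with 4 below and 1 above it. Its fitted log2 difference, heterozygous over wildtype with cage and body weight in the model, was -0.01 (SE 0.24, 95% interval -0.52 to 0.50). Myl1 (chr1:66924295-66945384, minus strand) ran from 6714 to 17245 CPM with a median of 11711 under the heterozygous label, and from 9694 to 13368 CPM with a median of 11377 under the wildtype label. Here 3 heterozygous libraries lay below and 2 above the wildtype range, and the fitted log2 difference was -0.06 (SE 0.21, 95% interval -0.50 to 0.39). For both genes the 3 lowest libraries were heterozygous replicates 5, 6 and 7.

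The slow light chain genes were scarce. Myl2 (chr5:122100951-122113472, plus strand) ran from 3.09 to 20.8 CPM with a median of 7.14 under the heterozygous label, and from 5.54 to 32.5 CPM with a median of 8.47 under the wildtype label. The highest library was wildtype replicate 4 and the next was heterozygous replicate 6, at 20.8 CPM. The highest library was 10.5-fold above the lowest, and the SD of its log2 CPM, 0.93, exceeded that of 97.6% of the genes tested. The fitted log2 difference was -0.65 (SE 0.47, 95% interval -1.65 to 0.35), and without wildtype replicate 4, the lone wildtype mouse of its cage, it turned to 0.85.

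Of 7 slow fiber markers, Tnnt1, Tnni1 and Tnnc1, the slow troponin subunits, were also highest in wildtype replicate 4, at 14.5, 13.5 and 11.7 CPM against medians of 6.75, 5.37 and 3.78 CPM over all 16 libraries. Myh7, the slow myosin heavy chain, was highest in heterozygous replicate 6, at 28.6 CPM against a median of 0.40 CPM, as was the slow calcium pump gene Atp2a2, at 70.0 CPM. Casq2 and Myoz2 were highest in other libraries. The summed level of the 7 markers was 143 to 251 CPM under the heterozygous and 184 to 293 CPM under the wildtype label. The part of these markers in the Myl2 values was not tested. In bulk tissue, fewer slow fibers and less mRNA in each of them cannot be told apart.

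Myl3 (chr9:110741861-110769798, plus strand) ran from 74.9 to 212 CPM with a median of 107 under the heterozygous label, and from 80.6 to 129 CPM with a median of 113 under the wildtype label. Its highest library was heterozygous replicate 9, and the labels overlapped. It was the one member with a positive fitted log2 difference, 0.25 (SE 0.22, 95% interval -0.20 to 0.71), and this value fell to 0.032 without body weight in the model and to 0.0065 with a replicate block in place of cage. The antisense gene Pth1r overlaps Myl3 and held 1094 counts against 42456 for Myl3 over all libraries, and whether the counting used strand is not stated.

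Mylk2 (chr2:152911352-152923068, plus strand), the kinase gene of skeletal muscle, was among the steadiest genes. It ran from 1241 to 1873 CPM with a median of 1464 under the heterozygous label, and from 1194 to 1712 CPM with a median of 1362 under the wildtype label. Its SD of log2 CPM, 0.19, exceeded that of 7.47% of the genes tested. The fitted log2 difference was -0.01 (SE 0.14, 95% interval -0.32 to 0.29).

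Among the tropomyosins, Tpm1 (chr9:67022590-67049267, minus strand) was the most counted member. It ran from 18784 to 31704 CPM with a median of 27973 under the heterozygous label, and from 25955 to 30656 CPM with a median of 28648 under the wildtype label. The 3 libraries below the wildtype range were heterozygous replicates 5, 6 and 7, and 3 heterozygous libraries lay above it. Its fitted log2 difference was -0.11 (SE 0.18, 95% interval -0.49 to 0.27).

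Tpm2 (chr4:43514711-43523765, minus strand) ran from 5604 to 10782 CPM with a median of 7747 under the heterozygous label, and from 5740 to 11167 CPM with a median of 6853 under the wildtype label. The labels overlapped almost entirely, with 1 heterozygous library below and 0 above the wildtype range. The fitted log2 difference was -0.23 (SE 0.19, 95% interval -0.62 to 0.17), although the medians lay the other way, and without covariates it was 0.04.

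Tpm3 (chr3:90072649-90100901, plus strand) was the steadiest member, with an SD of log2 CPM of 0.15 that exceeded that of 2.49% of the genes tested. It ran from 29.1 to 42.7 CPM with a median of 33.4 under the heterozygous label, and from 31.7 to 41.3 CPM with a median of 36.4 under the wildtype label. The fitted log2 difference was -0.08 (SE 0.14, 95% interval -0.37 to 0.21). Tpm3 lies 349689 bases from Npr1, the targeted gene, with 10 tested genes between them, of which 5 were lower and 5 higher by fitted value and 0 had an unadjusted p below 0.05. Its level is uncertain, since 22.9% of the distinct 52-base stretches of its transcripts also occur in other genes, chiefly its copy Tpm3-rs7. That copy held 121 counts against 13075 for Tpm3. Among the other members only Myl1 shared stretches, 11.4%, with the pseudogene Mylf-ps, which held 19508 counts against 4073337.

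Among the alpha-actinins, Actn2 (chr13:12269426-12340724, minus strand) ran from 296 to 863 CPM with a median of 485 under the heterozygous label, and from 331 to 548 CPM with a median of 437 under the wildtype label. The 6 wildtype libraries lay close together, while 4 heterozygous libraries were above and 1 below their range. The fitted log2 difference was -0.05 (SE 0.22, 95% interval -0.52 to 0.42), although the medians lay the other way, and without covariates it was 0.34. Actn3 (chr19:4861216-4877909, minus strand) ran from 5544 to 11357 CPM with a median of 9833 under the heterozygous label, and from 6647 to 11304 CPM with a median of 8516 under the wildtype label. Its fitted log2 difference was -0.12 (SE 0.19, 95% interval -0.53 to 0.29), with 1 heterozygous library below and 1 above the wildtype range. Here too the medians lay the other way, and without covariates it was 0.063.

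No member passed the threshold of 0.05 on the adjusted p, and the adjusted p was 1.0 for each (edgeR quasi-likelihood test, Benjamini-Hochberg over 14331 genes). Over all genes, 0 of 14331 (0%) passed. At an unadjusted p below 0.05 there were 151 genes (1.05%) and 0 members. DESeq2 called 6 genes, limma-voom 0 and the edgeR 4 form of the test 0, and the members called were 0 in each. By fitted value 9 members were lower and 1 was higher, with a median log2 difference of -0.07 beside -0.01 over all genes tested, of which 51.6% were lower. This count rests on the covariates and on single libraries, since 5 were lower and 5 higher without covariates, 4 and 6 without cage, 4 and 6 without wildtype replicate 4, and 6 and 4 without heterozygous replicates 5, 6 and 7. Mean body weight was 43.6 ± 3.79 g (SD, n = 10) under the heterozygous and 47.4 ± 4.69 g (SD, n = 6) under the wildtype label. The intervals are wide for Myl2 and narrower for Mylk2 and Tpm3, and changes within these bounds are not excluded with these mice. Leaving out heterozygous replicates 5, 6 and 7 moved the log2 difference of Myl1 to 0.13, of Mylpf to 0.18, of Tpm1 to 0.03 and of Actn2 to -0.32, and again no member passed. Within the 4 cages, the difference between label means was negative in all 4 for Tpm1, from -0.40 to -0.01, and had both signs for each of the other 9 genes. Heterozygous replicates 6, 5 and 7 lie in cages 675, 677 and 678, and replicate 5 is the only heterozygous library of its cage. In cage 675 the other heterozygous library, replicate 3, was at a log2 CPM of 14.90 for Tpm1 against a wildtype mean of 14.67.

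**Figure D2:**
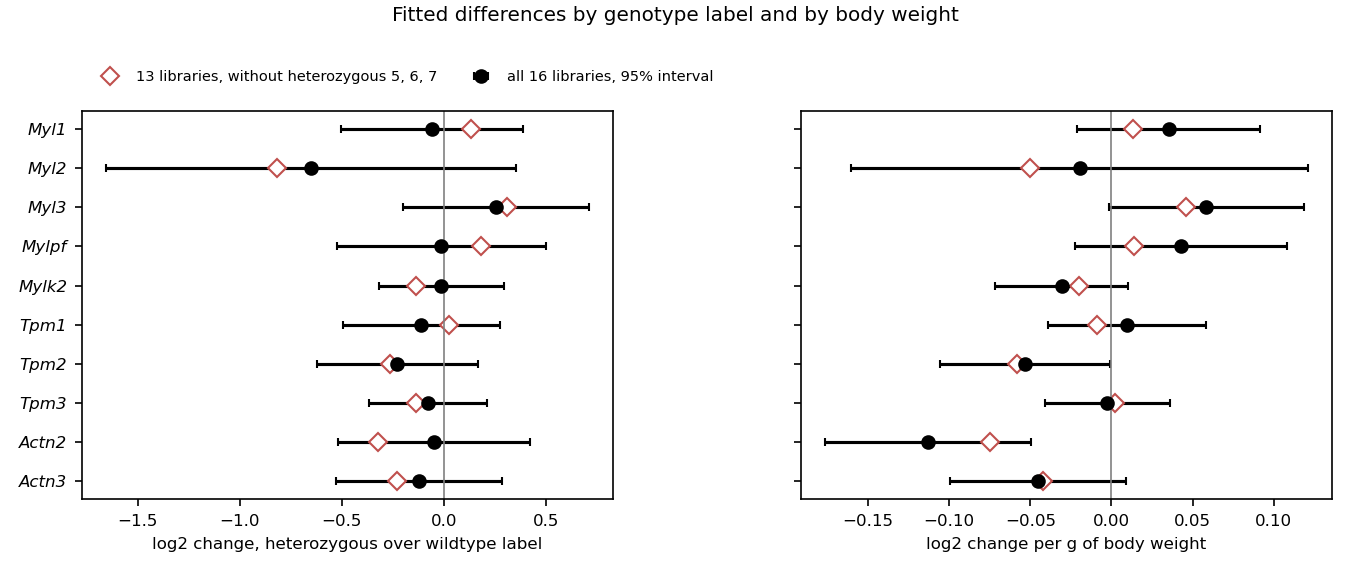
Fitted log2 difference by genotype label (left) and per g of body weight (right) for the 10 genes, as points with 95% intervals over 16 libraries, and as open diamonds over the 13 libraries without heterozygous replicates 5, 6 and 7. Each genotype interval spans 0, and by body weight those of Actn2 and Tpm2 lie below 0.

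The slow or mixed isoform of each family was a small share of its pair in every mouse, taken from counts per kb. Myl2 was 0.0149 to 0.129% of Myl2 plus Mylpf, with a median of 0.0286%. Myl3 was 0.626 to 1.43% of Myl3 plus Myl1, with a median of 1.07%. Tpm3 was 0.0979 to 0.227% of Tpm3 plus Tpm1, with a median of 0.135%. Each of these shares was under a few percent in all 16 mice, under either label.

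Actn2 was the largest minor share, 2.35 to 6.93% of Actn2 plus Actn3, with a median of 3.68%. Under the wildtype label it stayed between 3.28 and 3.86%, whereas under the heterozygous label it ran over the whole span. The mean log2 ratio of Actn2 over Actn3 was -4.57 ± 0.55 (SD, n = 10) under the heterozygous and -4.76 ± 0.093 (SD, n = 6) under the wildtype label. Without heterozygous replicates 5, 6 and 7 the heterozygous mean was -4.85 ± 0.38 (SD, n = 7), below the wildtype mean, and the share of Actn2 ran from 2.35 to 4.55%. The highest ratio was in heterozygous replicate 7. Myl2 over Mylpf and Tpm3 over Tpm1 were highest in heterozygous replicate 6. No test was made of these ratios, since the genes were chosen with results known.

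**Figure D3:**
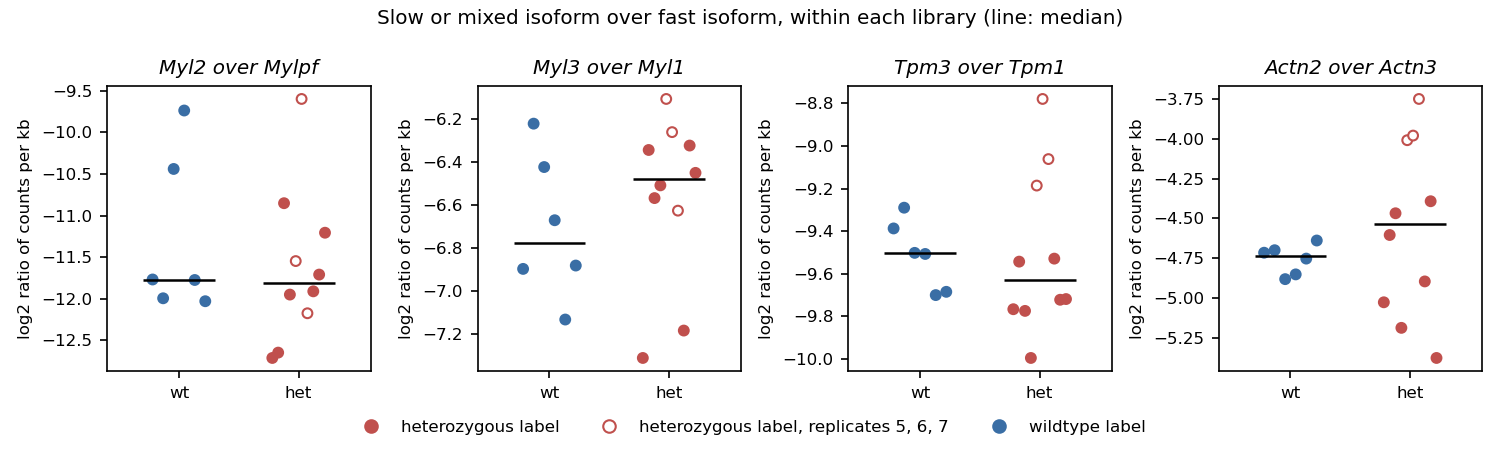
Log2 ratio of counts per kb of the slow or mixed isoform over the fast isoform in every library, for Myl2 over Mylpf, Myl3 over Myl1, Tpm3 over Tpm1 and Actn2 over Actn3, with wildtype (wt, n = 6) and heterozygous (het, n = 10) labels, medians as lines and heterozygous replicates 5, 6 and 7 as open circles. The wildtype libraries of Actn2 over Actn3 lie close together, and the 3 open circles lie above all other libraries for Actn2 over Actn3 and for Tpm3 over Tpm1.

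Heterozygous replicates 5, 6 and 7 were set apart by 4 of the 10 genes, and this comparison was chosen after the values were seen and carries no test. Over all 14331 genes tested, 1768 (12.3%) lay below the other 13 libraries in these 3 and 2107 (14.7%) above them, so that such a separation was common. Mylpf was 7795 to 9242 CPM in them and 12087 to 22532 CPM in the other 13 libraries. Myl1 was 6714 to 7799 CPM against 9694 to 17245 CPM, and Tpm1 was 18784 to 21737 CPM against 25955 to 31704 CPM. Actn2, in contrast, was 837 to 863 CPM against 296 to 616 CPM. The 3 libraries and the other 13 overlapped in the remaining 6 genes.

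Some genes of other families were apart in the same 3 libraries, while Acta1, Ckm and Ttn overlapped. The fast myosin heavy chain gene Myh4 was 29384 to 58769 CPM against 4960 to 20979 CPM, and Neb, the gene of the giant thin filament protein nebulin, was 3190 to 9205 CPM against 562 to 3057 CPM. The non-muscle alpha-actinin genes lay with Actn2, with Actn1 at 11.6 to 13.6 CPM against 2.74 to 7.24 CPM and Actn4 at 75.3 to 103 CPM against 28.0 to 55.3 CPM. Mylk, the smooth muscle kinase gene, was 37.5 to 54.0 CPM against 12.5 to 28.7 CPM. The light chain genes Myl4 and Myl6 lay with Myl1, Myl6 at 112 to 142 CPM against 182 to 435 CPM and Myl4 at 11.6 to 16.5 CPM against 18.9 to 32.0 CPM. Of the same families, Myl6b, Myl9, Myl10, Myl12a, Myl12b, Mylk4 and Tpm4 overlapped.

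Across all 16 libraries, 4 members followed the length slope of their library closely, among 10 relations computed. The slope is itself made from the genes tested, and of the 14331, 1317 (9.19%) had an r as low as that of Tpm1 or lower and 1340 (9.35%) an r as high as that of Actn2 or higher. The level of Mylpf fell with it (r = -0.96, rho = -0.93), as did that of Myl1 (r = -0.94, rho = -0.94), each with a permutation p of 1e-05, the smallest that 100000 resamples can give, and an adjusted p of 5e-05. Tpm1 also fell (r = -0.86, rho = -0.66, permutation p = 0.00013 and 0.00654, adjusted p = 0.000325 and 0.0163), and Actn2 rose (r = 0.84, rho = 0.74, permutation p = 0.00011 and 0.00136, adjusted p = 0.000325 and 0.00453). Without the 2 libraries farthest from the median slope, r was -0.92 for Mylpf, -0.93 for Myl1, -0.64 for Tpm1 and 0.71 for Actn2. In the 13 libraries without heterozygous replicates 5, 6 and 7 the relation held for Myl1 (r = -0.88) and Mylpf (r = -0.87), each with an adjusted permutation p of 0.0004, and 166 of the 14331 genes (1.16%) had an r there as low as that of Mylpf or lower. There it did not pass for Tpm1 (r = -0.35, adjusted permutation p = 0.476) or Actn2 (r = 0.50, adjusted permutation p = 0.268).

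The other members were less tied to it. Myl3 (r = -0.58, rho = -0.47) and Mylk2 (r = 0.58, rho = 0.47) had adjusted permutation p-values of 0.0337 for r and 0.115 for rho, and r without the 2 farthest libraries was -0.38 and 0.27. Neither passed in the 13 libraries, where r was -0.44 for Myl3 (adjusted permutation p = 0.327) and 0.087 for Mylk2 (adjusted permutation p = 0.775). For Myl2, Tpm2, Tpm3 and Actn3 r lay between -0.24 and 0.24, with adjusted permutation p-values of 0.461 to 0.594, and between -0.23 and 0.22 in the 13 libraries. The deposited lengths of Mylpf, Myl1, Tpm1 and Actn2 were 1062, 2074, 6485 and 3795 bases. RNA quality values were not used here, and their part was not tested.

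**Figure D4:**
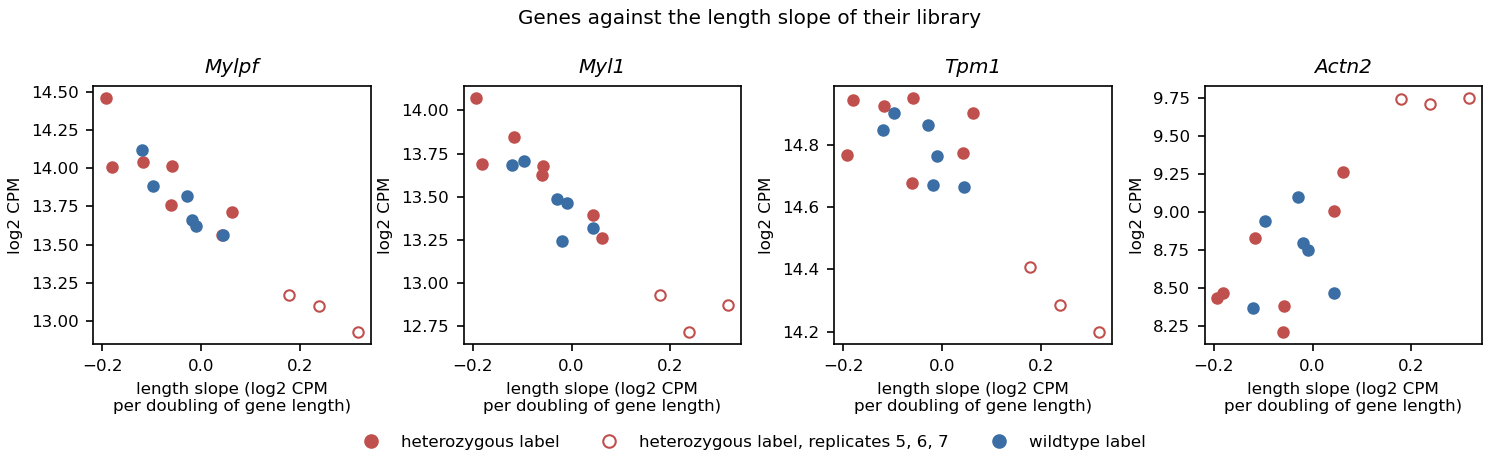
Log2 CPM of Mylpf, Myl1, Tpm1 and Actn2 in each of the 16 libraries against the length slope of that library, in log2 CPM per doubling of gene length, with wildtype in blue, heterozygous in red and heterozygous replicates 5, 6 and 7 as open circles. Mylpf and Myl1 fall along the whole range (r = -0.96 and -0.94), and for Tpm1 and Actn2 the open circles carry much of the relation.

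Among 8 pairs of members set by fiber type or family, the fast light chain genes Myl1 and Mylpf were the most closely tied. Their r over 16 mice was 0.95 and rho 0.91 (permutation p = 1e-05 for each, the smallest possible; adjusted p = 8e-05 for each). Without the 2 mice farthest from the median of Myl1, r was 0.93 (adjusted permutation p = 0.00016). After removal of the fitted label, cage and body weight terms it was 0.96, and in the 13 libraries without heterozygous replicates 5, 6 and 7 it was 0.90. No other pair passed the adjustment for r over 16 mice. Mylpf had still higher r with genes outside the sarcomere, 0.985 to 0.988 for the 5 given below. Myl1 and Mylpf both fell with the length slope of the library, so that their tie and that slope cannot be told apart here.

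Neither pair of slow members passed. Myl2 and Myl3 had r = 0.30 and rho = 0.30 (permutation p = 0.254 and 0.253), with r = 0.46 without the 2 farthest mice, and Myl2 and Tpm3 had r = 0.36 and rho = 0.26 (permutation p = 0.165 and 0.324), where r was -0.06 without the 2 mice with the most distant Myl2 values. In the 13 libraries r was 0.32 for Myl2 and Myl3 and 0.20 for Myl2 and Tpm3. The alpha-actinin genes had r = 0.52 and rho = 0.54 (permutation p = 0.0385 and 0.0327, adjusted p = 0.103 and 0.0872), with r = 0.59 without the 2 farthest mice. Over the same 13 libraries it was 0.65 (adjusted permutation p = 0.043). Tpm1 and Tpm2 had r = 0.42 and rho = 0.59 (permutation p = 0.11 and 0.0187, adjusted p = 0.22 and 0.0748), with r = 0.43 without the 2 farthest mice, and in the same 13 libraries r was 0.77 (adjusted permutation p = 0.0145).

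Mylpf and the kinase gene Mylk2, whose enzyme phosphorylates the chain that Mylpf encodes, had r = -0.57 and rho = -0.47 (permutation p = 0.0207 and 0.0677, adjusted p = 0.0828 and 0.135). It was -0.42 without the 2 farthest mice and -0.13 in the 13 libraries. Mylpf and Actn3, both markers of fast fibers, had r = -0.33 and rho = -0.04 (permutation p = 0.215 and 0.875), with -0.10 without the 2 farthest mice and -0.34 in the 13 libraries. Myl2 and Actn2 had r = -0.14 and rho = -0.19 (permutation p = 0.615 and 0.491), with -0.50 without the 2 farthest mice and -0.040 in the 13 libraries.

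The 5 genes most like Mylpf, among 7492 compared over 16 libraries, were no sarcomere genes. They were Tusc2 (r = 0.988), Cyhr1 (0.985), Park7 (0.985), Mrpl11 (0.985) and Psmd13 (0.985). The 5 most like Myl2 followed it far less closely, and were Isg20l2 (r = 0.608), Kctd5 (0.602), Dolk (0.596), Fam98c (0.593) and Pip4p1 (0.572). These are the highest of many values and are given as a description.

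Heavier mice had less Actn2 by fitted value, but no member passed the threshold. In the same model as the genotype label, 0 of 14331 genes (0%) passed for body weight, and 2449 (17.1%) had an unadjusted p below 0.05, of which 1769 (12.3% of all tested) were lower in heavier mice. Among the members Actn2 and Tpm2 were in the latter group. Actn2 changed by -0.11 on the log2 scale per g (SE 0.03, 95% interval -0.18 to -0.05, edgeR p = 0.0017, adjusted p = 0.245). DESeq2 gave it an adjusted p of 0.0488, and without heterozygous replicate 3 the edgeR adjusted p was 0.00459, beside 3158 genes that then passed. Those 3158 genes included Mylpf, at 0.09 per g (adjusted p = 0.0428). Heterozygous replicate 3 weighed 40.1 g, the lightest mouse of its cage.

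Within each of the 4 cages the least-squares slope of Actn2 on body weight was negative, from -0.16 to -0.07 per g. These slopes rest on 3 to 5 mice each and carry no term for the label. Cage 676 spanned only 45.3 to 48.1 g, and its highest Actn2, 548 CPM, was at 47.9 g. Heterozygous replicates 6, 5 and 7 were in cages 675, 677 and 678 respectively. Without heterozygous replicates 5, 6 and 7 the fitted change of Actn2 was -0.07 per g (edgeR p = 0.0064, adjusted p = 0.842). The 2 lightest of the 16 mice were heterozygous replicates 7 and 5, at 36.5 and 39.4 g, and their Actn2 levels were 863 and 858 CPM. Heterozygous replicate 6 weighed 46.2 g and had 837 CPM. Tpm2 changed by -0.05 per g (SE 0.02, edgeR p = 0.0462, adjusted p = 0.286). Its within-cage slope was negative in all 4 cages, as were those of Mylk2 and Actn3. In cage 676, however, the heaviest mouse (heterozygous replicate 10) had the highest Tpm2, 10782 CPM. Myl3 had the highest positive value, 0.06 per g (SE 0.03, edgeR p = 0.0547, adjusted p = 0.298), and its within-cage slope was positive in 3 of 4 cages. Over the 10 members, 6 were lower and 4 higher by fitted value, with a median of -0.01 per g beside -0.003 over all genes.

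**Figure D5:**
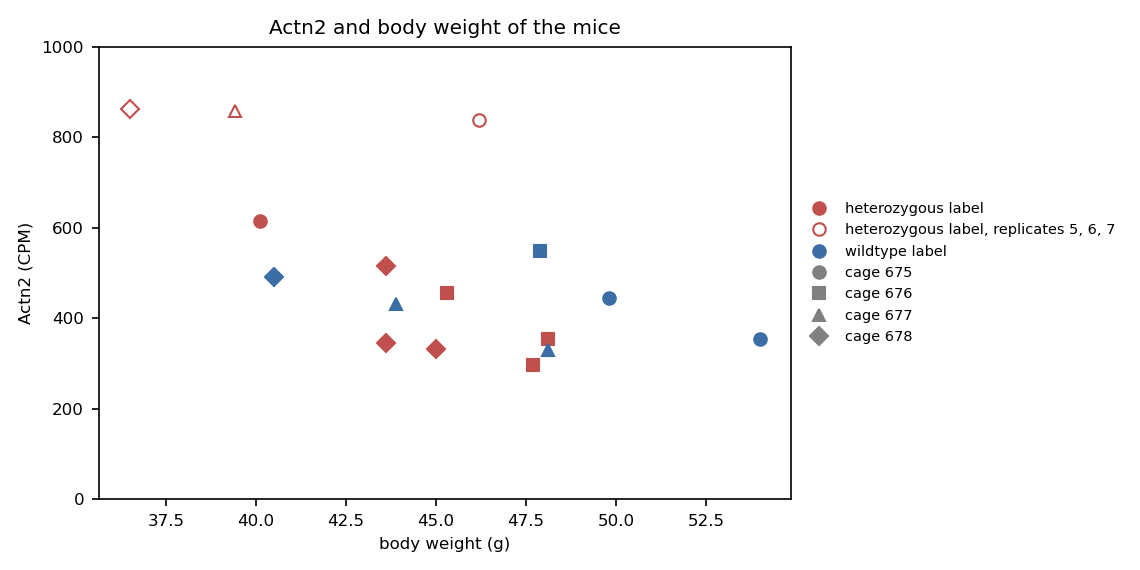
Actn2 level in CPM, on a linear axis from 0, against body weight in g for the 16 mice, with the label by color, the cage by symbol and heterozygous replicates 5, 6 and 7 as open symbols. The open symbols lie at 837 to 863 CPM, above the other 13 mice.

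Cage did not set the members apart. In the joint test of the 3 cage terms 4 of 14331 genes (0.0279%) passed, 1055 (7.36%) had an unadjusted p below 0.05, and the members were 0 in both counts. The smallest p-values were those of Actn2 (edgeR p = 0.0696, adjusted p = 0.656), Myl3 (p = 0.073) and Myl1 (p = 0.0783). Without heterozygous replicate 3 Actn2 passed (adjusted p = 0.0473), beside 869 genes.

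Of 14 relatives of the members in the same gene families, 12 were tested. Myl7, the atrial light chain, was at 0 counts in every library, and Mylk3, the cardiac kinase, did not pass the filter. By genotype label 8 were lower and 4 higher by fitted value, and 0 passed, with a median log2 difference of -0.06 beside -0.01 over all genes. The smallest p-values were those of Myl12a among the lower (-0.16, edgeR p = 0.272) and Actn4 among the higher (0.15, p = 0.546), each with an adjusted p of 1.0. Actn4 turned to -0.12 without heterozygous replicates 5, 6 and 7, where 7 were lower and 5 higher. The most counted relative was the kinase gene Mylk4, at 949 to 3508 CPM under the heterozygous and 1192 to 2290 CPM under the wildtype label. By body weight 2 of the 12, beside 12.3% of all genes, had an unadjusted p below 0.05 and were lower in heavier mice. They were Mylk and Actn4, at -0.10 and -0.07 per g. Without heterozygous replicates 5, 6 and 7 these values were -0.015 and -0.022 per g, with an unadjusted edgeR p of 0.635 and 0.365.

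Of 34 partners in the sarcomere, all tested, 23 were lower and 11 higher by fitted value and 0 passed, with a median of -0.06 on the log2 scale, beside 51.6% lower and a median of -0.01 over all genes. Over the 13 libraries without heterozygous replicates 5, 6 and 7, 21 were lower and 13 higher. An unadjusted p below 0.05 was reached by 2, beside 1.05% of all genes, both lower, and neither passed the adjustment (adjusted p = 1.0, edgeR quasi-likelihood test). Csrp3, a Z disc protein that senses stretch, was 16.5 to 36.2 CPM under the heterozygous and 27.6 to 62.1 CPM under the wildtype label, a log2 difference of -0.87 (edgeR p = 0.000285). Capza1, an actin capping subunit, was 3.46 to 9.26 CPM against 6.76 to 12.4 CPM. The higher partner with the smallest p was Flnc, filamin C of the Z disc (0.39, edgeR p = 0.302), whose value was 0.016 without heterozygous replicates 5, 6 and 7. By body weight 10 of the 34 had an unadjusted p below 0.05, all lower in heavier mice, and 0 passed. Over all genes 17.1% were below 0.05 by body weight, and 12.3% were below 0.05 and lower. The M band protein genes Myom2 and Myom1 had fitted values of -0.16 and -0.14 per g on the log2 scale, and of -0.10 and -0.07 per g without these 3 libraries.

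Among the lists of fiber and cell type markers, 0 genes passed by genotype label in any. The slow fiber list had 4 lower and 3 higher by fitted value, with a median of -0.17, and without heterozygous replicates 5, 6 and 7 it had 5 lower and 1 higher of 6 tested, with a median of -0.44. Tnnc1 then went from -0.60 to -0.92 (edgeR p = 0.012, adjusted p = 1.0). Its gene with the smallest p was Casq2, the slow and cardiac calsequestrin, at 23.9 to 95.7 CPM under the heterozygous and 82.5 to 165 CPM under the wildtype label (log2 difference -0.95, edgeR p = 0.0014, adjusted p = 1.0). Myh7 was the higher gene with the smallest p (1.15, edgeR p = 0.334), and without heterozygous replicates 5, 6 and 7 it did not pass the filter on low counts. The fast fiber list had 6 lower and 3 higher, led by Tnnc2 (-0.31, p = 0.111) and Myh1 (0.30, p = 0.525) among genes with adjusted edgeR p-values of 1.0. In the skeletal muscle list Acta1 (-0.22, p = 0.32) and Ryr1 (0.63, p = 0.283) had the smallest edgeR p-values of each direction. Without heterozygous replicates 5, 6 and 7 the log2 difference was -0.21 for Myh1, which turned its direction, 0.22 for Ryr1 and -0.34 for Acta1, and the fast fiber list had 7 lower and 2 higher.

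For cells other than skeletal fibers, the smooth muscle list ran from 209 to 434 CPM in sum under the heterozygous and from 254 to 373 CPM under the wildtype label, with Myl9 (-0.13, edgeR p = 0.436) and Myh11 (0.26, p = 0.621) as the genes with the smallest p. Myh11 was 51.5 to 106 CPM in heterozygous replicates 5, 6 and 7 against 8.75 to 33.7 CPM in the others, and without these 3 the values were -0.076 for Myl9 and 0.051 for Myh11. The adipocyte list ran from 3918 to 7653 CPM and from 5002 to 6950 CPM, with Adipoq (-0.29, edgeR p = 0.513) and Car3 (0.11, p = 0.62). The median of its 6 genes was -0.08, and it fell to -0.76 over the 13 libraries, with 4 lower and 2 higher. The lower were Adipoq at -0.62, Plin1 at -1.03, Cidec at -0.90 and Lep at -0.998 (edgeR p = 0.0507), none of which passed. The higher were Fabp4 at 0.084 and Car3 at 0.17. Car3 is also made by muscle. The cardiac list ran from 18.7 to 34.8 CPM and from 23.9 to 31.2 CPM with 3 of 8 genes tested, among them Tnnt2 (-0.47, edgeR p = 0.0567) and Myh6 (0.57, p = 0.42), which turned to -0.091 without heterozygous replicates 5, 6 and 7. The tendon list ran from 199 to 576 CPM and from 244 to 419 CPM, with Scx (-0.07, edgeR p = 0.783) and Fmod (0.40, p = 0.248). Both turned without heterozygous replicates 5, 6 and 7, Scx to 0.21 and Fmod to -0.023. The list of muscle repair and embryonic fibers ran from 10.8 to 34.8 CPM and from 13.7 to 22.7 CPM, with Myod1 (-0.13, edgeR p = 0.545) and Myh8 (0.74, p = 0.236), at -0.27 and 0.44 over the 13 libraries. The adjusted edgeR p-value was 1.0 for each of these genes, and the labels overlapped in the sum of every list.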

How the data were processed

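Bulk mRNA of skeletal muscle from 16 mice was sequenced in read pairs of 52 bases. The values that the authors deposited are raw counts for each gene. Reads had been aligned to GRCm38 by STAR 2.7.2b on the GENCODE M24 genes, and featureCounts (1.6.4 per the processing notes) had counted pairs with both ends aligned. The methods and the labels name different library kits, and whether counting used strand is not stated. The deposited table also holds a gene length, used for values per kb and for the length slope. Library totals ranged from 15273472 to 59682677 counts; no library pair held identical values.

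Of 55471 gene identifiers, 55144 were paired with a symbol through GENCODE M21. Low genes were dropped by filterByExpr on the genotype label. Libraries were then TMM-scaled and genes tested in edgeR 4.0.16 (R 4.3.3; glmQLFit with robust = TRUE and legacy = TRUE, glmQLFTest) with genotype label, cage and body weight as terms and Benjamini-Hochberg adjusted p at a threshold of 0.05. SE and 95% intervals come from the same test. CPM (counts per 1000000) used TMM-scaled library sizes over the filtered genes. Levels per kb were compared by sign flips over 16 mice, and correlations of log2 CPM by 100000 permutations in numpy 2.4.6. The steps were tested on simulated data. All samples entered each main fit. The length slope is the least-squares slope, over the tested genes, of log2 CPM relative to the mean of all libraries on log2 gene length.

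The 10 genes, the lists and the tests were chosen with earlier results of these data known. Genes named are the 10 members, Npr1, the 5 genes most like Mylpf and Myl2 among those with a mean of at least 10 CPM, and from each list every gene past a threshold and the gene with the smallest genotype p in each direction; others named were chosen after their values were seen. The 6 pairs of same-numbered libraries of different label deviated together with a mean r of 0.08 and with r over 0.1 in 1 of 6, so the numbers were not used as pairs. Alternatives were other scalings and filters, DESeq2 1.42.0, limma-voom (limma 3.58.1), the edgeR 4 form of the test, thinning to the smallest library, other covariates, a replicate block and leaving out each mouse; a length correction, the median coding transcript length and leaving out heterozygous replicates 5, 6 and 7 were added after the data were seen. RefSeq sequence windows are on GRCm38.p6.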

Additional observations from a re-analysis of the deposited data

Results flagged for a closer look

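Among 28 groups of values examined (the log2 CPM of the 10 genes and the 4 log2 ratios, each in the 10 heterozygous and the 6 wildtype libraries), 1 held a library far from the others by Dixon's test, where chance gives about 1 in 20 groups. Tpm3 in heterozygous replicate 6 was at a log2 CPM of 5.42, above the next heterozygous library at 5.14, with the lowest at 4.87. Heterozygous replicate 6 is one of the 3 libraries with the steep length slope, and it also held the highest Myh7 level, 28.6 CPM. Their part in this value was not tested. Without this library the log2 difference of Tpm3 by genotype label was -0.14, against -0.08 with it.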

How the results depend on the processing

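Calls among the members were few under any setting, and the cause of each shift below was not tested. By genotype label 0 members passed under every alternative that was run, and the genes passing over the whole table were 0 in the fit as reported, 8 with no filter on low counts, 6 by DESeq2, 2 with the replicate block, 1 without heterozygous replicates 5, 6 and 7 and 0 to 3 when 1 library was left out. By body weight DESeq2 called 26 genes and 1 member, Actn2. Leaving out 1 library gave 0 to 3158 genes and 0 to 2 members, the highest without heterozygous replicate 3. By cage, where 4 genes passed, the count was 0 with library totals alone, 23 with no filter, 1 with at least 10 counts in every library, 86 by DESeq2, 1 by limma-voom, 2 without heterozygous replicates 5, 6 and 7, 9 with the length correction and 0 to 869 when 1 library was left out, with 0 to 1 members.

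Fitted log2 differences by label changed sign with the processing, most often for Mylpf and Mylk2, which lay near 0. With RLE size factors they were 0.011 for Mylpf and 0.0018 for Mylk2, with no filter 0.0082 and 0.0031, by DESeq2 0.011 and 0.0019, and with the length correction 0.036 and 0.028. Without covariates they were 0.11 for Mylk2, 0.037 for Tpm2, 0.34 for Actn2 and 0.063 for Actn3. With cage but not body weight they were 0.098 for Mylk2, 0.37 for Actn2 and 0.043 for Actn3. With body weight but not cage they were 0.035 for Myl1, 0.044 for Mylpf, 0.047 for Mylk2, 0.022 for Actn2 and 0.016 for Actn3. Same-numbered libraries deviated together weakly (mean r 0.08, against -0.0082 for other pairs), and the number as a replicate block in place of cage gave 0.16 for Mylk2, 0.26 for Actn2 and 0.16 for Actn3, with 0 members called. Without heterozygous replicates 5, 6 and 7 the values were 0.13 for Myl1, 0.18 for Mylpf and 0.027 for Tpm1. When 1 library was left out, they ran from -0.19 to 0.065 for Myl1, -0.87 to 0.85 for Myl2, -0.12 to 0.089 for Mylpf, -0.092 to 0.083 for Mylk2, -0.14 to 0.065 for Tpm3 and -0.20 to 0.23 for Actn2. The highest value was without wildtype replicate 4 for each of these but Actn2, where it was without wildtype replicate 5.

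By body weight, Tpm3 turned to 0.0026 per g with RLE size factors, 0.0072 with library totals, 0.000149 with no filter, 0.0026 by DESeq2, 0.0018 without cage, 0.0022 without heterozygous replicates 5, 6 and 7 and 0.017 with the length correction. Myl2 turned to 0.0073 per g by limma-voom, and Tpm1 to -0.0090 without heterozygous replicates 5, 6 and 7. With 1 library left out the change per g ran from -0.055 to 0.12 for Myl2, -0.0086 to 0.047 for Tpm1, -0.014 to 0.011 for Tpm3 and -0.15 to -0.10 for Actn2.

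In the order of levels, the log2 difference of Myl1 over Tpm1 was -1.29 with no division by length and -0.25 with the median coding transcript length. With that length Actn3 over Tpm2 was -0.57 and Actn2 over Myl3 -0.021. Tpm3 over Myl2 passed at 2.03 with no division by length and at 0.77 with the coding transcript length, and Actn3 over Tpm2 did not pass in the wildtype label alone (0.26, where 6 mice allow an exact permutation p of 0.0312 at the least). The correlation of Myl2 and Tpm3 was -0.058 without the 2 farthest mice. Those of Tpm1 and Tpm2 (0.77) and of Actn2 and Actn3 (0.65) passed without heterozygous replicates 5, 6 and 7. Myl2 had 57 to 467 counts in a library.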
